A study of Mus musculus with 6 samples.

Results

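AP-1 is a family of transcription factors that bind DNA as pairs, and 8 of its genes were described here in mouse alveolar type II (ATII) cells: the Fos family genes Fos, Fosb, Fosl1 and Fosl2, the Jun family genes Jun, Junb and Jund, and Atf3. They were taken by name from the 52636 gene IDs of the deposited matrix, and all 8 were found. The study asked about the response of such cells to interleukin 4 (IL-4), a cytokine of type 2 immunity, and how it changes with age. Per the labels, expression was measured in cells from young and old animals after culture to day 13, in cells from young animals alone after culture to day 13, and in cells of both ages sorted fresh at day 0, with 1 library for each. All cells were IL4Ra WT, and the treatment of each library is given as a mixed sample. In culture they grew as alveolarspheres, hollow epithelial balls, and received either PBS or 10 ng/ml of the cytokine, starting on day 3. It is IL-4 in the study's title, but the number differs in its design text.

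The barcodes carry 3 library tokens that match no label, so the day, age and treatment of a cell are unknown. They are named libraries A, B and C by order of appearance, their levels are set side by side without a fold or a test, and the matrix counts as 1 sample. Of 36584 barcodes 36540 were kept, with 16367 cells in library A, 5593 in B and 14580 in C. Median depth was 3749, 8349 and 3341 unique molecular identifiers (UMIs, each counting 1 captured transcript). All 12 ATII markers reached 20 UMIs per 1000000 (CPM) in each library, and Sftpc, which encodes surfactant protein C, held 255076, 128764 and 116228 CPM. Libraries A and C shared 67 barcode sequences, B and C 22, and A and B 20. Library A stood apart from the others in RNA make-up, with a median of 2.44% mitochondrial UMIs against 0.794% in B and 0.629% in C, and with 19055 CPM of the nuclear RNA Malat1 against 6583 and 5247 CPM.

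Fos proteins cannot pair with each other and bind DNA with a Jun partner, while Jun proteins can also pair among themselves and with Atf3. Growth factors and stress act through MAP kinases to switch on Fos, Fosb, Jun, Junb and Atf3 within minutes, and cell dissociation does so too, whereas Jund is expressed more steadily and Fosl1 and Fosl2 follow later. AP-1 pairs bind the sequence TGANTCA or, with ATF partners, TGACNTCA, and they control genes of growth, stress, inflammation and epithelial repair. Krt19, a keratin of simple epithelium, is a marker of the transitional state that ATII cells pass through on their way to alveolar type I (ATI) cells, the thin cells of gas exchange.

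The last 100 bases before the annotated start are shown for Fos, Jun and Atf3, whose transcripts were found together in the same cells, and for Fosl2. Its fold by Krt19 was the largest in B and C among members of at least 20 CPM in either Krt19 class. These classes are cells with 2 or more Krt19 UMIs and cells with 0. Over the whole library Fosl2 stood below 20 CPM in B and C. The 4 genes were chosen after their values were seen. Capitals mark a match on either strand to TGANTCA, TGACNTCA or TGACGT, the core bound by CREB and ATF factors, which overlaps TGACNTCA where N is G. Sequences are from RefSeq (GRCm38.p6), which held 7 of the 8 genes, and run 5′ to 3′ on the gene's strand. They lie at chr12:85473790-85473889 (plus strand) for Fos, chr4:95052223-95052322 (minus) for Jun, chr1:191183334-191183433 (minus) for Atf3 and chr5:32136372-32136471 (plus) for Fosl2.
Fos: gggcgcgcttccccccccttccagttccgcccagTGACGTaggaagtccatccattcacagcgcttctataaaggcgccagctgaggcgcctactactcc
Jun: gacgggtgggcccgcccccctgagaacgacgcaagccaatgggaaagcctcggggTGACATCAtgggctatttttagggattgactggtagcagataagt
Atf3: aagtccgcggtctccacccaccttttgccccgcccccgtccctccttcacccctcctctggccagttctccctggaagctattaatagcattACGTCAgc
Fosl2: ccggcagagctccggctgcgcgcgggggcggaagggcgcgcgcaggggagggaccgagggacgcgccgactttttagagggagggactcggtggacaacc

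Over the 250 bases before the start, TGACGT was found in Fos at 66 to 61 bases before the start, and in Atf3 at 8 to 3 bases, where it lies on the other strand and reads ACGTCA. TGACNTCA was found in Jun alone of the 7 genes, as TGACATCA at 45 to 38 bases before the start. TGANTCA was found in 0 of the 7. Among all 32851 promoters of this length in the table, 6.47% hold TGACGT, 7.49% hold TGACNTCA and 6.75% hold TGANTCA on either strand. The TATA box motif TATAAA was found in Fos at 33 to 28 bases, and is in 12.4% of all promoters. The CCAAT box was found in Jun at 65 to 61 bases and in Junb at 36 to 32 bases, and is in 33.8% of all promoters. Fosl2, Fosb and Jund held none of the 5 motifs in this window. Each window belongs to the 1 start that RefSeq gives, and a match describes letters, not binding. The windows of Fos and Jun adjoin the start in the GENCODE annotation used for naming. Those of Atf3 and Fosl2 lie inside the gene spans given there, chr1:191170296-191218039 and chr5:32135801-32157842.

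The genes differ in structure as well. In the GENCODE annotation of GRCm38, Jun (chromosome 4), Junb and Jund (both chromosome 8) have a single exon, and the longest coding transcripts of Fos (12), Fosb (7), Fosl1 (19), Fosl2 (5) and Atf3 (1) have 4 exons. None overlaps another gene on its own strand. Fosl1 overlaps Ccdc85b, Jun overlaps Junos, Junb overlaps Prdx2, Jund overlaps Gm11175 and Atf3 overlaps Gm24748 on the opposite strand, and how the counting used strand is not given in the sources used here.

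The 8 genes together held 6460 CPM in library A (411256 UMIs, interval 6441 to 6480), 1558 CPM in B (75818 UMIs, 1547 to 1569) and 1321 CPM in C (70448 UMIs, 1311 to 1331). Intervals here and below are 95% exact intervals and cover counting error only. After each cell was thinned to 2000 UMIs, the median cell held 12 AP-1 UMIs in library A, 3 in B and 2 in C. Cells with no AP-1 UMI were 0.280% (45 of 16079), 12.2% (678 of 5564) and 17.1% (2273 of 13291). Almost every cell of library A thus carried AP-1 transcripts at this depth, and the higher level was spread over the library. Each library was also split by its own depth into 4 groups of cells of equal size. These ran between 6156 and 6986 CPM in A, between 1384 and 1626 CPM in B and between 1242 and 1404 CPM in C. The order of the libraries was the same in each group, but the groups are not matched in depth between libraries. The shallowest group of B (median 4863 UMIs) stood at 1384 CPM, and the deepest of C (5430 UMIs) at 1404 CPM. B thus did not stand above C between these 2 groups. Within A the level was highest in the shallowest group, and within B it was highest in the deepest. Other markers also set library A apart. The airway secretory list summed to 2638 CPM in A, 247 CPM in B and 152 CPM in C. The club cell gene Scgb1a1 alone held 2503 CPM in A, so the sum there is mostly its own level and does not describe the list as a whole. In B and C the highest gene of the list was Aldh1a7, at 107 and 89.1 CPM. The ciliated list summed to 154, 5.05 and 13.97 CPM. The proliferation list summed to 26.8, 722 and 949 CPM, and Krt19 stood at 51.996, 276 and 314 CPM. These and the higher mitochondrial and Malat1 levels of library A stand beside its AP-1 level, and their part in it was not tested.

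**Figure D1:**
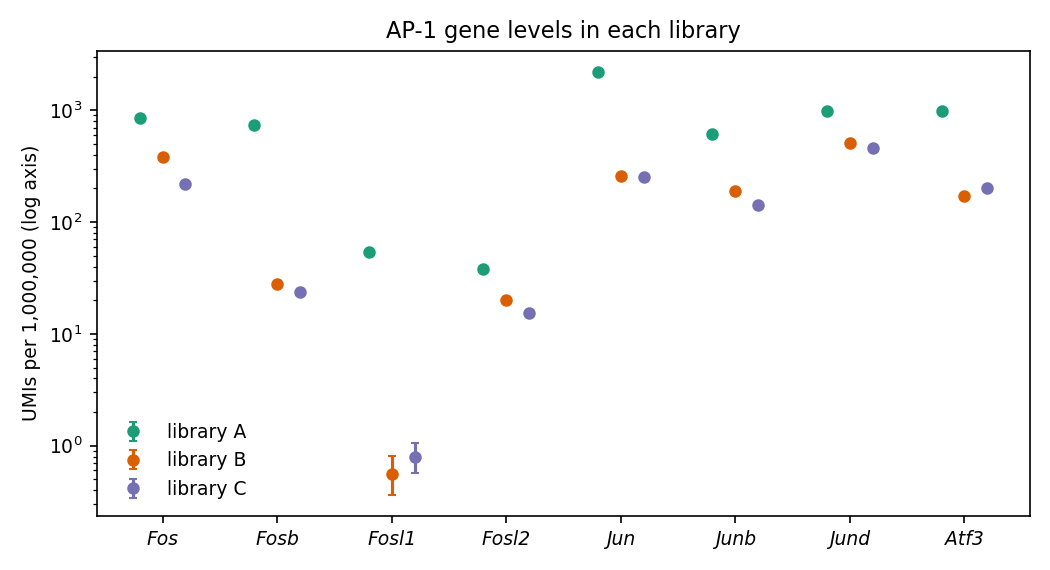
Level of each AP-1 gene in UMIs per 1000000 (log axis) in libraries A, B and C, summed over all kept cells, with 95% exact Poisson intervals. Library A holds the highest point for all 8 genes, and Fosl1 is near 1 or below in B and C.

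Jun, the archetypal partner of Fos, stood at 2193 CPM in library A, 257 CPM in B (interval 253 to 262) and 251 CPM in C (247 to 255). It led library A by a wide margin, and its intervals in B and C overlap. Junb, an early-response gene whose protein can restrain Jun, stood at 614, 189 and 143 CPM. Jund, the steady member, stood at 983, 508 and 464 CPM and had the narrowest spread between libraries for its level of the 8 genes. A level in UMIs counts transcripts from their 3′ end and does not grow with gene length, so levels of different genes can be set side by side, within differences in capture.

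Fos, the early-response gene that gives the family its name, stood at 845 CPM in A, 383 CPM in B and 221 CPM in C. Fosb, a close relative of Fos, stood at 742 CPM in A, 27.7 CPM in B and 23.6 CPM in C. Fosl1, which encodes Fra-1, a factor of migrating and wounded epithelium, stood at 54.5 CPM in A (3471 UMIs). In B and C it rested on 27 and 42 UMIs, 0.555 CPM (interval 0.366 to 0.807) and 0.788 CPM (0.568 to 1.06), which overlap. Fosl2, which encodes Fra-2, stood at 37.9, 19.9 and 15.3 CPM. Fosb and Fosl1 were thus the members with the widest spread between libraries, and Fosl2 was low in all 3.

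Atf3, a stress-induced partner of Jun, stood at 991 CPM in A (interval 984 to 999), 172 CPM in B and 203 CPM in C. It was the member that stood higher in C (interval 199 to 207) than in B (168 to 176) with intervals that do not overlap. In library A its interval overlaps that of Jund (975 to 990).

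The make-up of the AP-1 pool also differed between libraries. In library A, Jun held 33.9% of the AP-1 UMIs, followed by Atf3 with 15.3%, Jund with 15.2%, Fos with 13.1%, Fosb with 11.5% and Junb with 9.50%. In library B, Jund held 32.6%, Fos 24.6%, Jun 16.5%, Junb 12.1% and Atf3 11.0%. In library C, Jund held 35.1%, Jun 18.99%, Fos 16.7%, Atf3 15.4% and Junb 10.8%. The pool of A was thus led by Jun, and those of B and C by Jund, with Fosb at 1.78% in B and 1.79% in C. Fosl1 and Fosl2 made up 0.844% and 0.586% of the pool in A, and Fosl2 1.28% in B and 1.16% in C. The Fos family held fewer UMIs than the Jun family in every library, at a ratio of 0.443 in A, 0.452 in B and 0.304 in C.

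**Figure D2:**
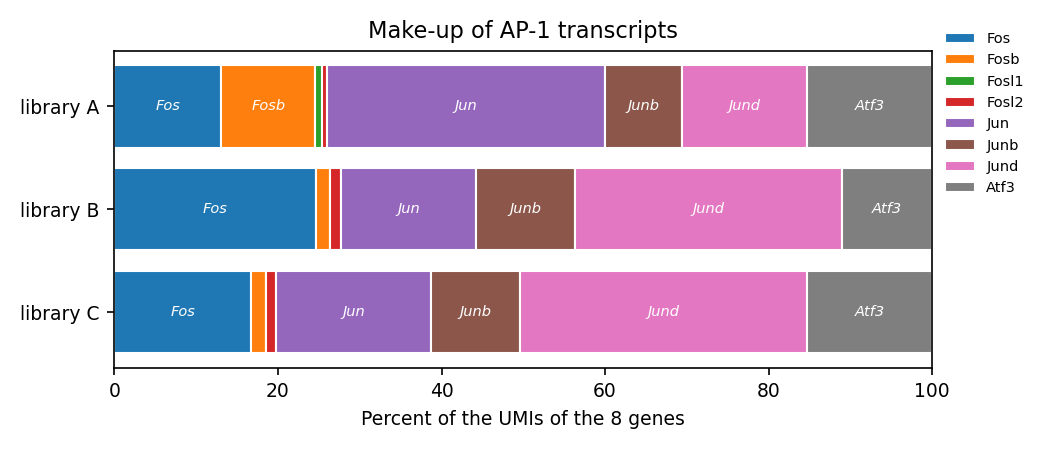
Percent of the UMIs of the 8 AP-1 genes held by each gene, in libraries A, B and C (1 bar each, all kept cells). Jun is the longest segment in A, with 33.9%, and Jund in B and C, with 32.6% and 35.1%.

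Single cells gave the same leaders. Among cells with at least 5 AP-1 UMIs, Jun had the most UMIs in 55.1% of those of library A (interval 54.3 to 55.9%), and Jund led in 9.78% and Atf3 in 9.08%. In library B, Jund led in 44.7% (43.2 to 46.2%) and Fos in 24.9% (23.6 to 26.1%). In library C, Jund led in 36.3% (35.1 to 37.6%), Jun in 14.5% and Fos in 12.2%. Ties for the lead were 12.5%, 14.3% and 22.4% of these cells, which were 98.3%, 81.6% and 40.0% of each library. Fosl1 led in 0 cells of any library, and Fosl2 led in 1, 7 and 2 cells.

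At the common depth of 2000 UMIs the commonest number of different AP-1 genes seen in a cell was 5 in library A (30.8% of cells), 2 in B (29.3%) and 1 in C (31.7%). A transcript of both a Fos and a Jun family gene, the partners of the classical AP-1 pair, was seen in 88.5% of cells in A, 38.4% in B and 27.0% in C. In A, Jun was seen in 93.5% of cells, Jund in 81.4%, Atf3 in 12381 of 16079, Fosb in 69.0%, Junb in 63.9% and Fos in 63.4%. In B, Jund was seen in 57.7%, Fos in 41.9%, Jun in 34.9%, Junb in 29.0% and Atf3 in 23.7%. In C, Jund was seen in 56.9%, Jun in 32.3%, Fos in 28.8%, Atf3 in 25.6% and Junb in 22.9%. Without thinning the share for Jund was 93.5%, 90.8% and 73.1%. No cell type known to lack these genes was among the cells, so the share that free RNA in the droplets gives could not be measured.

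Fos varied between cells of a library more than counting alone gives. The Fano factor, the variance over the mean, is 1 for pure counting. At 2000 UMIs it was 2.79 for both Fos and Jun in library A, 1.95 for Atf3, 1.58 for Fosb, 1.51 for Junb and 1.37 for Jund. The median of 4332 genes in A was 1.03, and their 90th percentile was 1.16. The 90th percentile was 1.28 in B (3777 genes) and 1.22 in C (3680 genes). These genes have a thinned mean of at least 0.05 UMIs and were not matched to the members in mean, so the percentiles are a rough yardstick. In B the factor was 1.66 for Fos, 1.52 for Atf3 and 1.43 for Jund, and in C 1.75 for Atf3, 1.52 for Fos and 1.46 for Jun. Jund, although the most abundant member in B and C, was thus not the most variable one. In library A, 1392 cells held 10 or more thinned UMIs of Jun, 170 of Fos and 98 of Atf3, with up to 48 for Atf3 in 1 cell. In B and C at most 2 cells held as many of any member.

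Co-detection was measured at 2000 UMIs as the number of cells with both genes over the number that the product of their shares gives. The ratio was above 1 for 25 of 28 pairs in library A (median 1.02), 19 of 21 in B (median 1.14) and 21 of 23 in C (median 1.29), counting pairs with at least 5 cells given by the product. A pair of genes seen in most cells, as in A, cannot have a ratio far above 1. These ratios are a description without a test.

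Fos and Fosb, early-response relatives, were found together at a ratio of 1.51 in B and 1.86 in C. In C, Fosb was seen in 7.22% of cells with Fos, against 2.54% of cells without it. Fos and Atf3 had ratios of 1.34 in B and 1.54 in C, and Jun and Atf3 1.39 and 1.52. Atf3 was seen in 39.3% of cells of C with Fos, against 20.02% of cells without it. Jund was nearer to the product, at 1.04 with Fos in B and 1.06 in C. The early-response members thus ran together in the same cells. Jund was seen only somewhat more often with Fos than without it, in 59.9% against 56.2% of cells in B and 60.6% against 55.5% in C.

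Some pairs of the late Fos family genes with Fos or Fosb lay below the product. In library A, Fosl1 was seen in 7.41% of cells with Fos, against 12.04% of cells without it, a ratio of 0.814. Fosl2 and Fosb shared 5 cells in B, where the product gives 10.7, a ratio of 0.468. In C they shared 13 cells, where it gives 15.1, a ratio of 0.864. Fosl2 and Fos had ratios of 0.873 in B and 0.9495 in C. In A, Fosl2 had ratios of 1.04 with Fosb (818 cells) and 0.996 with Fos, and Fosl1 had 1.05 with Fosb. With Atf3, Fosl2 lay above the product, at 1.28 in B and 1.29 in C, and with Jund at 1.14 and 1.09. Fosl1 and Fosl2 were found together in A at a ratio of 1.16 (121 cells). Fosl1 was thus seen less often in Fos-positive than in Fos-negative cells of A. The Fosl2 pairs with Fosb that lay below the product, in B and C, rest on few cells, and this pair was not below it in A.

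**Figure D3:**
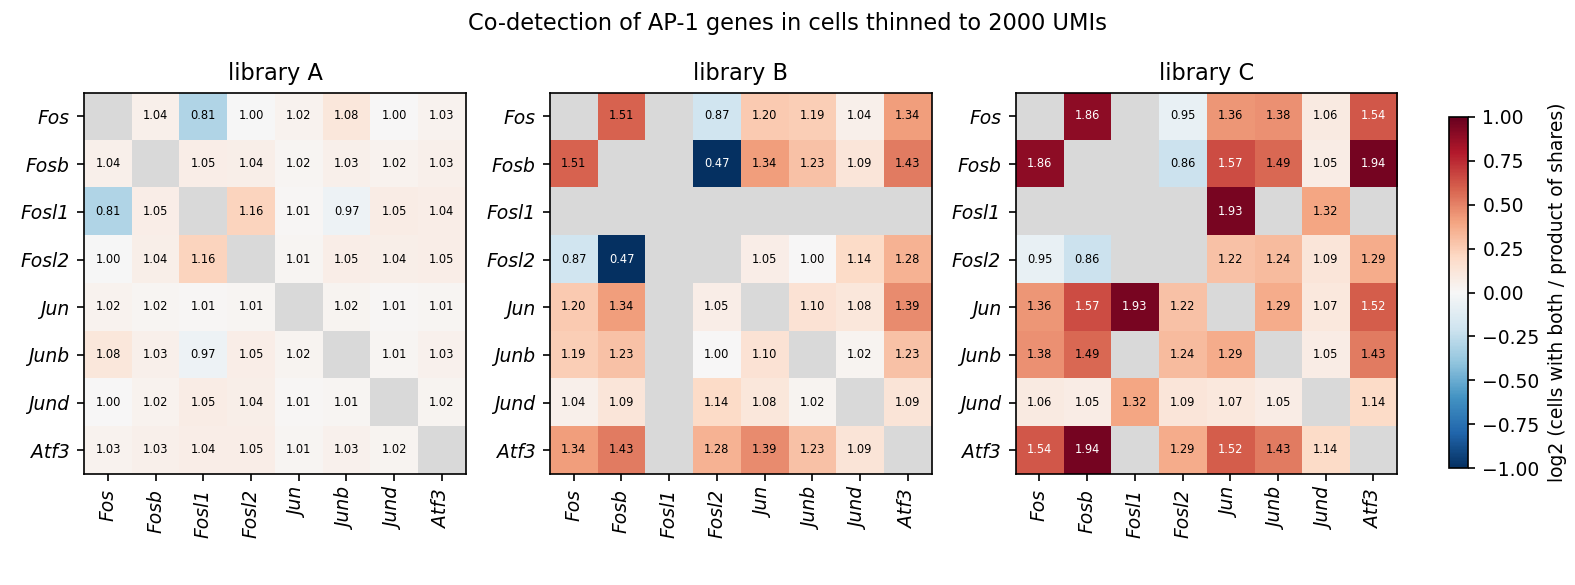
Co-detection of each pair of AP-1 genes in libraries A, B and C, in cells thinned to 2000 UMIs. Numbers are cells with both genes over the product of their shares, colour is log2 of that ratio (red above 0), and grey marks the gene itself or a pair with fewer than 5 cells given by the product. Fos with Fosl1 is the lowest pair in A, at 0.814, and Fosb with Atf3 the highest in C, at 1.94.

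Cells were then binned by thinned Fos UMIs, a split chosen after the pair values were seen. In library A, with 0, 1, 2 or 3, and 4 or more Fos UMIs, Fosl1 was seen in 12.04%, 8.74%, 6.75% and 6.43% of cells. Mean Jun was higher in each bin than in the one before, at 3.26, 4.005, 5.03 and 6.80 UMIs, while Jund was seen in 81.3%, 80.5%, 80.6% and 84.2% of cells. In library C, Atf3 was seen in 20.02%, 34.8%, 46.8% and 66.9% of cells along these bins. Jund was seen in 56.2%, 58.3%, 61.9% and 63.6% of cells along the bins in B, and in 55.5%, 60.0%, 61.8% and 61.9% in C. With Fos, Jun thus climbed steadily in A and Atf3 in C, while Fosl1 declined in A. Jund was nearly level in A, where most cells held it, and climbed by a smaller amount in B and C.

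The genes most like each AP-1 gene were then ranked across the cells of a library. Pearson's r was taken over log-transformed counts per 10000 UMIs, and the points share the depth of their cell, so r is a description. Egr1, a zinc-finger early-response gene, was closest to Fos, with r of 0.429 in A (16367 cells), 0.427 in B (5593) and 0.311 in C (14580). It was also closest to Jun (0.309, 0.345 and 0.303) and to Junb (0.298, 0.217 and 0.202). For Atf3, Egr1 was closest in B (0.327) and C (0.341). Ier2, an early-response gene, was second for Fos in each library (0.315, 0.362 and 0.261), and the heat shock gene Hspa1a came next in A (0.269). Jund was closest to Gdf15, a stress cytokine, in B (0.243). Fosl1 in A was closest to Gclc (0.208), a gene of glutathione synthesis. Klf4 was closest to Fosb in A (0.201).

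Among genes other than the members, Egr1 thus stood nearest to Fos, Jun and Junb in each library. Gdf15 was likewise nearest to Jund in B and Gclc to Fosl1 in A. Some members stood nearer than these genes. Junb had r of 0.304, 0.260 and 0.217 with Fos in A, B and C, and Jund had 0.251 with Jun in B. Among the members themselves, Fos and Jun had r of 0.383 in A, 0.335 in B and 0.270 in C. Jun and Atf3 had 0.229, 0.392 and 0.333. Fos and Fosl1 in A had r of -0.127.

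Krt19-positive cells were next set against Krt19-negative cells of the same library. Cells with 2 or more Krt19 UMIs numbered 543 in A, 2785 in B and 3709 in C, against 13771, 1353 and 6915 cells with 0. Cells with exactly 1, next to the threshold, numbered 2053, 1455 and 3956. Fosl2 was higher in Krt19-positive cells in B and C, and Atf3 to a lesser degree in all 3 libraries. Folds are log2 of CPM plus 1, Krt19 2 or more over 0, with an exact interval of the ratio of counts without the added 1.

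Fosl2 stood at 25.3 CPM in Krt19-positive cells of C (362 UMIs), against 10.6 CPM in cells without Krt19 (257 UMIs), which is a log2 fold of 1.17 (interval 1.01 to 1.48). In B it stood at 25.1 against 12.9 CPM, a log2 fold of 0.91 (0.70 to 1.23). In A it stood at 39.2 against 37.1 CPM, 0.08 (-0.24 to 0.38). The intervals in B and C lie above 0, and that in A spans it. At 2000 UMIs Fosl2 was seen in 5.13% of Krt19-positive cells of C against 1.88% of cells without Krt19, and in 5.66% against 2.55% in B.

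Atf3 stood at 1200 against 978 CPM in A, a log2 fold of 0.29, at 187 against 146 CPM in B, 0.35, and at 274 against 165 CPM in C, 0.73 (interval 0.67 to 0.80). Its intervals lie above 0 in all 3 libraries. Fos stood at 915 against 841 CPM in A, 0.12, at 374 against 374 CPM in B, -0.0023 (-0.06 to 0.05), and at 258 against 202 CPM in C, 0.36. With Krt19 counted after thinning to 2000 UMIs, the log2 fold of Fos was 0.33 in A, -0.69 in B and 0.11 in C. Its size in each library, and its direction in B, thus depended on how Krt19 was counted. This count also made the Krt19-positive class the shallower one. Median depth was 3497.5 against 3782 UMIs in A, 5959.5 against 8830 in B and 3156 against 3621 in C. Fos in B stood at 246 CPM in the shallowest of 4 groups of cells by depth and at 441 CPM in the deepest. The part of depth in these folds was not tested. Fosb had -0.01 in A, -0.30 in B and 0.28 in C, and -0.14 in C with Krt19 counted after thinning.

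Fosl1 in A stood at 80.6 against 52.5 CPM, a log2 fold of 0.61 (interval 0.39 to 0.83). In B it rested on 20 against 3 UMIs and in C on 14 against 18 UMIs. The Jun family had smaller folds, of 0.11 in A, 0.22 in B and 0.32 in C for Jun, 0.16, 0.06 and 0.32 for Junb and 0.14, 0.27 and 0.35 for Jund. All 8 genes summed to 7071 against 6405 CPM in A, 1618 against 1434 CPM in B and 1575 against 1183 CPM in C, log2 folds of 0.14, 0.17 and 0.41.

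By the size rule, a log2 fold of at least 1 either way with at least 20 CPM in either class, 0 members passed in A, 0 in B and 1 in C, Fosl2 (higher). Among all genes tested 0.617% were higher and 0.0374% lower in A, 1.04% and 0% in B, and 2.39% and 0.213% in C. Krt19 itself is among the genes counted. Fosl2 reached 20 CPM in B and C in the Krt19-positive class alone (25.1 and 25.3 CPM, against 12.9 and 10.6 CPM). It thus entered the rule and the medians below through the class where it is higher. Its call is therefore a description. The median fold of the members with at least 20 CPM in either class (8 in A, 7 in B and 7 in C) was 0.13 in A, 0.22 in B and 0.35 in C, beside 0.07, 0.00 and 0.05 for all such genes. Scaling by edgeR's TMM factors shifted all folds by -0.12 in A, which put Jun at -0.01 and Fosl2 at -0.04 there, by 0.03 in B and by -0.05 in C. The call of Fosl2 in C ended without the cells above the median share of ATI marker UMIs of their library (log2 fold 0.88), with Krt19 taken as 1 UMI or more (0.79), and with a minimum of 50 CPM. In B, Fosl2 passed in 4 alternatives, among them a threshold of 3 Krt19 UMIs (1.21), and stood at 0.50 without those ATI-rich cells.

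**Figure D4:**
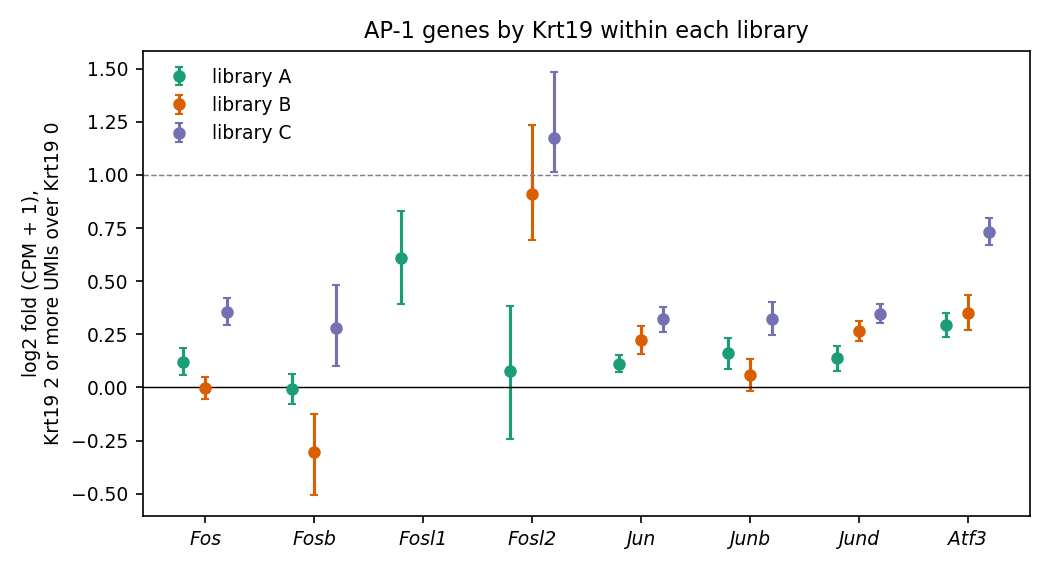
Log2 fold of CPM plus 1 of each AP-1 gene, cells with 2 or more Krt19 UMIs over cells with 0, in libraries A, B and C. Bars are 95% exact intervals of the ratio of counts, the dashed line is the size rule, and Fosl1 is drawn for A alone because B and C rest on few UMIs. Fosl2 in C lies above the dashed line, at 1.17, and Fosb in B below 0, at -0.30.

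Other markers differed by Krt19 too. Of 11 transitional markers other than Krt19, 5 of 9 measured passed the size rule in A, 7 of 10 in B and 9 of 11 in C, all higher. The ATI list, with 12 genes, none at 0, summed to 1838 against 1631 CPM in A, 1577 against 1070 CPM in B and 3006 against 1934 CPM in C, and 0 of 6, 3 of 7 and 4 of 7 measured passed, all higher. Of 12 ATII markers 0 passed, and Sftpc stood at 235651 against 256610, 118667 against 140496 and 95414 against 126264 CPM. Malat1 stood at 21177 against 18890, 7149 against 6206 and 6571 against 4678 CPM, and median depth was 4035 against 3732, 8518 against 7854 and 3481 against 3207 UMIs. The airway secretory list summed to 3436 against 2459 CPM in A, 282 against 215 CPM in B and 110 against 182 CPM in C, and of its 8 genes Scgb1a1, which encodes a club cell secretory protein, alone passed, higher in B (1.52) and lower in C (-1.11). The ciliated list summed to 213 against 150 CPM in A, 5.34 against 5.28 CPM in B and 13.8 against 13.4 CPM in C, and of its 8 genes Tppp3 alone passed, in A (1.06). The mesothelial list without Krt19 (4 genes) summed to 0.871 against 0.169 CPM in A, 7.46 against 0.273 CPM in B and 24.7 against 1.41 CPM in C, where the gene that passed was Msln (3.54), which is also on the transitional list. The macrophage list summed to at most 14.96 CPM in any class, with C1qa and C1qb at 0. The part of the airway, ciliated and mesothelial lists in the AP-1 folds was not tested. Treatment and age are unknown, so a difference by Krt19 cannot be told apart from a different mix of them.

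The same cells were then split by single counts of Krt19. These bins show the shape of the differences above and are no separate support for them. In library C, with 0, 1, 2, 3, 4 or 5, and 6 or more Krt19 UMIs, Fosl2 stood at 10.6, 13.3, 16.9, 21.5, 35.4 and 48.7 CPM. In library B it stood at 12.9, 15.7, 14.6, 22.0, 21.9 and 54.3 CPM, so that most of its increase lay in the highest bin. Atf3 in C stood at 165, 196, 239, 291, 317 and 315 CPM. Jund stood at 423, 457, 485, 544, 582 and 664 CPM in C, and at 453, 482, 498, 520, 571 and 645 CPM in B, higher in each bin than in the one before. Fos in B stood at 374, 410, 396, 378, 389 and 304 CPM, with its lowest value in the highest bin. These bins are not held at a common depth. Median depth along them was 7854, 8489, 8795, 8985, 8401 and 6909 UMIs in B and 3207, 3456, 3560, 3528, 3263.5 and 3476 UMIs in C. The bin with the highest Fosl2 level and the lowest Fos level in B was thus also the shallowest. From the shallowest to the deepest of 4 groups of cells, Fos in B stood at 246, 357, 388 and 441 CPM. The part of depth in these levels by Krt19 was not tested.

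**Figure D5:**
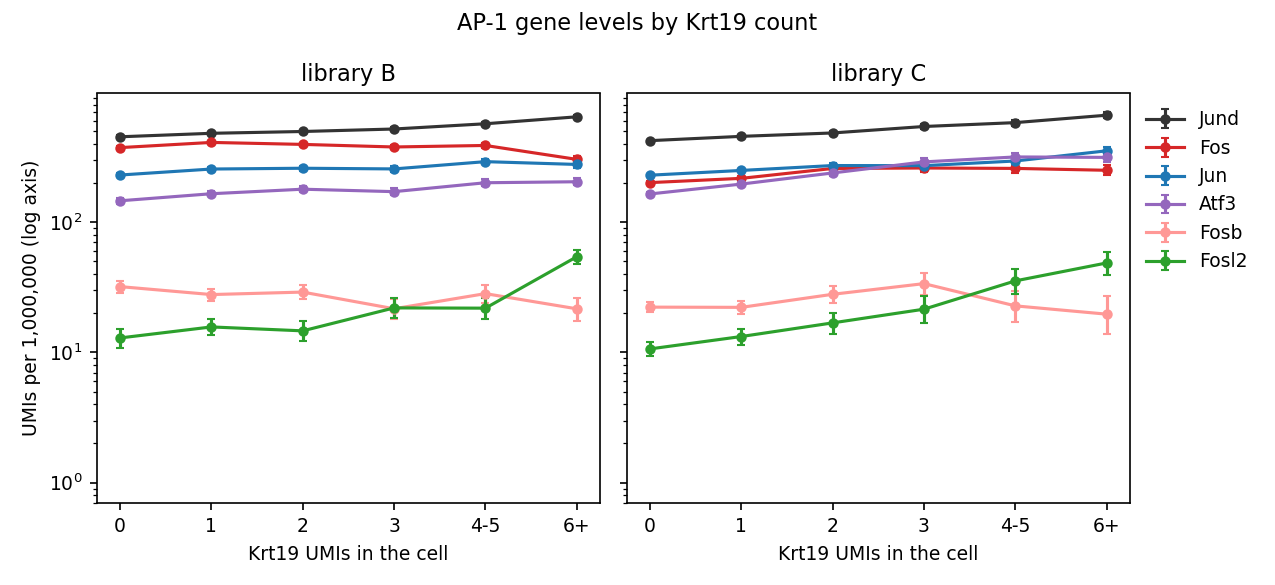
Level of 6 AP-1 genes (UMIs per 1000000, log axis) by the number of Krt19 UMIs in the cell, in libraries B and C, with 95% exact Poisson intervals. Fosl2 climbs from 10.6 to 48.7 CPM in C and is at 54.3 CPM in the highest bin of B, while Fos in B is lowest there, at 304 CPM. That bin of B also holds the shallowest cells.

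Genes around AP-1 were read from lists chosen with earlier results of these data known. Of AP-1 target genes, 2 of 10 measured passed the size rule in A, 4 of 13 in B and 5 of 11 in C, all higher, with median folds of 0.41, 0.43 and 0.90. Areg, which encodes the growth factor amphiregulin, stood at 1174 against 500 CPM in A, 36.4 against 10.8 in B and 66.0 against 19.2 in C, log2 folds of 1.23, 1.66 and 1.73. Sprr1a, a cornified envelope gene that is also on the transitional marker list, had 2.98, 3.12 and 2.35. Areg and Sprr1a passed in all 3 libraries.

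Named after their values were seen, Hmox1, the haem-degrading stress enzyme, had 1.98 in B and 2.56 in C but 0.18 in A. Vegfa, which is also on the ATI list, passed in C, at 1.48. Among 24 other bZIP genes, which share the DNA-binding and pairing domain of AP-1, 0 of 18 measured passed in A, 1 of 12 in B and 1 of 10 in C. In both it was Ddit3, the stress factor CHOP, at 1.05 and 1.55 (log2). Of the MAP kinase feedback genes, 0 of 9 passed in A, 0 of 7 in B and 1 of 5 in C, the phosphatase gene Dusp4 (1.03).

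Of upstream kinase genes, 0 of 13, 0 of 11 and 0 of 11 measured passed in A, B and C. Factors that act on the Fos promoter gave 0 of 5, 0 of 1 and 0 of 1, and genes of AP-1 turnover 0 of 8, 0 of 6 and 0 of 5.

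Proliferating cells were set against the rest within B and C, since 33 cells of A are too few. Cells with 3 or more UMIs of 10 proliferation markers numbered 1097 in B and 2650 in C, against 2871 and 9029 cells with 0. Fosl2 was lower in proliferating cells, at 13.0 against 22.6 CPM in B, with a log2 fold of -0.76 (-1.07 to -0.54), and at 10.8 against 17.5 CPM in C, -0.65 (-0.97 to -0.43). Jund was lower too, at 444 against 531 CPM in B, -0.26, and at 405 against 495 CPM in C, -0.29. Fos stood at 399 against 369 CPM in B, 0.11, and at 263 against 210 CPM in C, 0.32. The median fold of all genes was 0.19 in B and 0.20 in C, and TMM scaling shifted all folds by -0.23 in both. Under that scaling Fosl2 (-0.97 and -0.87) and Jund (-0.48 and -0.52) were lower still, while Fos was at -0.11 in B and 0.09 in C. Proliferating cells were deeper, and Fosl2 was lower in deeper cells: from the shallowest to the deepest of 4 groups of cells it stood at 40.1, 20.7, 18.6 and 13.5 CPM in B and at 21.8, 17.3, 13.7 and 12.97 CPM in C. With the other cells weighted to the depth of the proliferating ones, an alternative chosen after seeing the data, Fosl2 was at -0.44 in B and -0.49 in C, Jund at -0.29 and -0.31, and Fos at -0.06 and 0.11. Fosl2 and Jund thus stood lower in the proliferating cells of both libraries in each of these ways, with a smaller difference for Fosl2 at matched depth, and the direction of Fos in B depended on the scaling and on depth.

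Jun had -0.29 in B and -0.02 in C, and Atf3 had -0.26 and 0.12, and under TMM scaling Jun had -0.51 and -0.25 and Atf3 -0.49 and -0.11. At matched depth Jun had -0.37 and -0.27 and Atf3 -0.34 and -0.14. By the size rule 0 of 7 measured members passed in B and 0 of 6 in C, beside 7.5% of all genes higher and 0.556% lower in B, and 8.11% higher and 1.4% lower in C. Fosl1 in B and C, and Fosl2 in C, stood below 20 CPM in both classes and could not pass. In B, Fosl2 reached 20 CPM in the cells without proliferation markers alone. Krt19 itself stood at 210 against 314 CPM in B and at 186 against 377 CPM in C. The ATI list summed to 1012 against 1504 CPM in B and to 1094 against 2847 CPM in C, and median depth was 10599 against 7753 and 5180.5 against 3079 UMIs. The part of Krt19 and the ATI list in the AP-1 folds was not tested.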

How the data were processed

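Single cells were sequenced with the 10x Genomics Chromium 3′ v3.1 kit with cell multiplexing tags, per the labels' protocols. The authors deposited 1 matrix of whole-number UMI counts per gene and barcode. Reads had gone through bcl2fastq and Cell Ranger 6.0.1, with GRCm38 and mm10 named as builds, per the submitters' processing notes. Cell calling, doublet removal and strand use are not given in the sources used here. The tag libraries were not used here, and 0 features of the matrix are tags.

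Gene IDs were named from the GENCODE annotation of GRCm38 (52489 of 52636; the other 147 hold 0.00980% of UMIs). Cells were kept with at least 1000 UMIs, 500 genes and at most 15% mitochondrial UMIs, which removed 44 barcodes. No doublet caller was run; leaving out the 5% of cells with most UMIs stands in as an alternative. UMIs were summed per class and scaled to CPM, with exact Poisson intervals for levels, exact conditional intervals for ratios and Clopper-Pearson intervals for shares. Cells were thinned with seed 1. No test was run, since each group has 1 library and the tokens match no label. The fold script was tested on simulated data. TMM factors came from edgeR 4.0.16 (R 4.3.3). Other steps used scipy 1.17.1, numpy 2.4.6, pandas 2.3.3 and matplotlib 3.10.9 under Python 3.11.15.

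The members and lists were chosen with earlier results of these data known. Named are all members, Krt19, up to 4 genes of each list with the largest mean fold among those past the size rule in every library, and for each member of at least 20 CPM the up to 3 other genes with the highest r, where r is at least 0.2; others are said to be chosen after their values were seen. Some genes that meet this rule are not reported here.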

Additional observations from a re-analysis of the deposited data

How the results depend on the processing

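No paired analysis was possible because the matrix counts as 1 sample and its library tokens match no label, so the Krt19 classes were set side by side within each library. Over 12 alternatives the log2 fold of the summed members by Krt19 kept its sign in each library. It was 0.023, 0.20 and 0.36 in A, B and C with edgeR's TMM factors, and 0.10, 0.14 and 0.36 with totals that leave out Sftpc and mitochondrial genes. With Krt19 taken as 1 UMI or more it was 0.073 in A and 0.28 in C, with 3 or more 0.21, 0.20 and 0.50, and with Krt19 counted after thinning 0.18, 0.034 and 0.38. Without the ATI-rich cells, an alternative chosen after seeing the data, it was 0.049 in A and 0.35 in C. In C it was 0.38 with depth weighted alike and 0.45 without proliferating cells.

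The number of all genes past the size rule was 35, 49 and 122 in A, B and C. It was 7, 28 and 44 with 1 Krt19 UMI, 197, 81 and 270 with 3, 93, 259 and 311 with Krt19 counted after thinning, 17, 28 and 72 with a minimum of 50 CPM, 517, 117 and 286 with no minimum, and 14 in B and 57 in C without the ATI-rich cells. The number of members past it was 1 in B, in place of 0, with 3 Krt19 UMIs, with Krt19 counted after thinning, without the 5% of cells with most UMIs and as a mean over cells. It was 0 in C, in place of 1, with 1 Krt19 UMI, with a minimum of 50 CPM and without the ATI-rich cells. Fosl2 kept its sign in 12 of 12 alternatives in B (0.50 to 1.65) and in C (0.79 to 1.54), and in 10 of 12 in A. Fos in B ran between -0.69 and 0.13. The 1.65 of Fosl2 and the -0.69 of Fos in B came with Krt19 counted after thinning. There the Krt19-positive cells were shallower (median 5959.5 against 8830 UMIs) and richer in ATI markers (2444 against 1149 CPM). The part of depth and of ATI markers in these 2 values was not tested.

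Summed levels were 8975, 1805 and 1506 CPM in A, B and C with totals without Sftpc and mitochondrial genes, and 5535, 1708 and 1406 CPM with TMM factors. The log2 fold of the summed members in proliferating cells was -0.15 in B and -0.025 in C, against -0.37 and -0.26 with TMM factors, -0.18 and -0.065 with totals without Sftpc and mitochondrial genes, -0.22 and -0.17 at matched depth, and -0.087 in C without the 5% of cells with most UMIs, alternatives added after seeing the data. As a mean over cells the leading share was 32.7% for Jun in A, 36.6% for Jund in B and 43.0% for Jund in C, and Jund in C was 35.8% without the 5% of cells with most UMIs. The cause of these shifts was not tested. Counting error is widest for Fosl1 in B and C, which rests on 27 and 42 UMIs.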
